A study of Macaca mulatta with 5 samples.

Results

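The VIP nuclei described here were 91 inhibitory neuron nuclei from frozen claustrum tissue of the rhesus macaque, taken from 40005 nucleus barcodes in all. They were chosen by their own counts of unique molecular identifiers (UMIs), each of which tags 1 captured RNA molecule. A nucleus was inhibitory when it held at least 3000 UMIs, at least 3 UMIs of GAD1 and GAD2 together, at most 1 UMI of SLC17A7, and fewer than 15 UMIs of PDE10A, RGS9 and RARB per 10000. These genes encode the GABA-synthesising enzymes, the vesicular glutamate transporter of cortical excitatory neurons, and proteins of striatal projection neurons. The limit on PDE10A, RGS9 and RARB took the count from 3849 nuclei to 2177, and from 1160 to 471 in the second library of the older animal. Whether single nuclei lay in the claustrum or in adjoining tissue was not tested. Of the 2177 inhibitory nuclei, a VIP nucleus held at least 2 UMIs of VIP, no UMI of SST and at least 5 UMIs of ADARB2. Single-nucleus RNA sequencing with the 10x Genomics 3' V3 kit was run on frozen claustrum of 2 untreated male animals aged 17 and 18 months. There were 2 libraries from the younger animal, called 17-month here, and 3 from the older, called 18-month. Each library held between 47512670 and 70896967 UMIs over 6659 to 9540 barcodes. Because each age is 1 animal, age and animal cannot be told apart, and p-values measure the spread between libraries, which may be technical.

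VIP encodes vasoactive intestinal peptide. Neurons that make it release GABA and arise in the caudal ganglionic eminence of the embryonic brain, like other neurons that express ADARB2. In the cortex they are known for contacting other inhibitory neurons, above all those that make somatostatin, so that their firing releases pyramidal cells from inhibition. Many of them contain the calcium-binding protein calretinin, encoded by CALB2, and subsets carry cholecystokinin or corticotropin-releasing hormone. Acetylcholine and serotonin excite them through ion channel receptors. Inhibitory neurons of the medial ganglionic eminence, which make somatostatin or parvalbumin, depend on the transcription factors LHX6, SOX6 and SATB1.

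VIP itself was captured sparsely. Among the 91 nuclei, 47 held exactly 2 VIP UMIs, 15 held 3, 14 held 4 and 15 held between 5 and 9. ADARB2, which encodes an RNA-editing enzyme relative, was far above the limit of 5, with 16 to 286 UMIs per nucleus and a median of 79. These values chose the nuclei and are given as a description. The gate was therefore decided by the VIP limit. Just outside it, 89 ADARB2 nuclei without SST held exactly 1 VIP UMI, of which 64.0% held a CALB2 UMI and 22.5% an SCGN UMI. Just inside it, the 47 nuclei with exactly 2 VIP UMIs had 72.3% with CALB2 and 27.7% with SCGN. LHX6 was found in 5.62% and NOS1 in 7.87% of the nuclei just outside, and in none of the 47 just inside. Median depth was 7666 UMIs just outside and 7819 just inside.

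The SST and ADARB2 limits removed 7 nuclei. Those removed for SST numbered 6 and held 1 SST UMI each, beside 58 to 115 ADARB2 UMIs and no LHX6. Of these, 4 came from the third library of the 18-month animal, and 1 of them held 14 VIP UMIs, more than any retained nucleus. At least 1 SST UMI was also seen where SST is not expected, in 7.22% of nuclei in an oligodendrocyte gate and 13.4% in an excitatory gate. The median depth of these gates, given below, was unlike that of the VIP nuclei. The 1 nucleus removed for ADARB2 held none of it and 14 UMIs of SOX6.

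Some UMIs in a droplet come from free RNA. At least 1 VIP UMI was found in 1.62% of 3269 oligodendrocyte nuclei (median 3556 UMIs) and in 2.68% of 261 excitatory nuclei (median 23641 UMIs), against 6.38% of the inhibitory nuclei outside the gate. Each gate of comparison was defined by UMIs of its own marker genes. The VIP nuclei had a median of 8943 UMIs (3791 to 26593). The 2086 other inhibitory nuclei had a median of 9457.5. Between any pair of libraries, 11 to 39 barcode sequences were shared, 197 barcodes in all, and 3 of the 91 VIP nuclei were among the barcodes with the highest doublet scores of their library.

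The name VIP was checked against VIP, CALB2, ADARB2 and SCGN, of which CALB2 and SCGN took no part in the choice. CALB2 was detected in 70 of 91 nuclei (76.9%, exact 95% interval 66.9 to 85.1) and SCGN in 29 (31.9%, 22.5 to 42.5). In the other inhibitory nuclei the shares were 14.9% (13.4 to 16.5) and 2.73% (2.08 to 3.53). In oligodendrocytes they were 1.62% and 0.0918%. At a common depth of 3000 UMIs per nucleus, the expected shares were 42.5% in VIP and 8.23% in other inhibitory nuclei for CALB2, and 17.7% and 1.44% for SCGN. Intervals of this kind cover counting error only. LHX6, PVALB and the acetylcholine-synthesising enzyme gene CHAT had no UMI in the VIP nuclei, and 0 of 91 nuclei allows a share of up to 3.97% of nuclei with a UMI. PVALB was also scarce in the other inhibitory nuclei, with 51 UMIs in 2086 nuclei, so its absence says little.

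Markers of glia, vessels and excitatory neurons had overlapping ranges in VIP and other inhibitory nuclei, except those of oligodendrocyte precursors. Levels were expressed as CPM, the UMIs of a gene scaled to a common total of the summed UMIs. Summed over each marker list, excitatory markers reached 17.6 to 99.5 CPM in the 5 VIP libraries and 35.7 to 88.1 in the other inhibitory nuclei. Oligodendrocyte markers reached 269 to 761 and 273 to 524, astrocyte markers 94.4 to 299 and 116 to 229, microglial markers 5.72 to 43.6 and 27.8 to 48.9, and endothelial markers 0 to 22.1 and 13.1 to 24.5. The striatal list, which shares PDE10A, RGS9 and RARB with the gate, reached 378 to 785 and 524 to 615. Precursor markers were higher without overlap, at 356 to 532 against 297 to 353. Of these, PDGFRA was 249 ± 52.3 in VIP and 275 ± 23.0 in other nuclei (SD, n = 5), CSPG4 had 1 UMI in VIP nuclei, and VCAN was 172 ± 52.0 against 40.6 ± 8.61. VCAN, which encodes the matrix proteoglycan versican, was called higher (log2 fold change 2.05, SE 0.19, adjusted p = 9.69e-17), and PDGFRA was not (log2 -0.11, adjusted p = 0.758). The part of precursor RNA in the VCAN difference was not tested. Markers of LAMP5 neurons reached 22.1 to 141 against 454 to 645, and markers of SST neurons 4.27 to 17.2 against 194 to 262. The SST list holds SST itself, which the gate set to 0 in VIP nuclei and which was 74.3 ± 13.2 in the others (SD, n = 5), so part of that gap was fixed by the choice of nuclei. The list for PVALB neurons, which includes the widely expressed ERBB4, reached 9156 to 12634 against 7848 to 9117. CLDN5 and PVALB were at 0 in the VIP nuclei and had only 38 and 51 UMIs in the others.

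The VIP nuclei made up a small share of inhibitory nuclei in both animals. They were 12 of 493 inhibitory nuclei (2.43%, 95% interval 1.26 to 4.21) and 17 of 330 (5.15%, 3.03 to 8.12) in the younger animal. For the older animal the counts were 26 of 523 (4.97%, 3.27 to 7.20), 24 of 471 (5.10%, 3.29 to 7.49) and 12 of 360 (3.33%, 1.73 to 5.75). The first library of the 17-month animal was the lowest, and the intervals of all 5 libraries overlapped. The mean was 3.79% ± 1.92 (SD, n = 2) in the 17-month animal and 4.47% ± 0.984 (SD, n = 3) in the 18-month animal, and 4.18% (3.38 to 5.11) of nuclei over all libraries. With 2 against 3 libraries, an exact permutation test cannot give p below 0.1, so none was run. These shares, and which animal had the higher one, depended on the gate and on depth. With 1 VIP UMI enough, they were 8.40% in the 17-month and 7.97% in the 18-month animal, and with at least 4 VIP UMIs 0.960% and 1.66%. With each nucleus thinned to 3000 UMIs before the gates they were 1.36% and 0.605%, from 4 and 3 VIP nuclei.

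**Figure D1:**
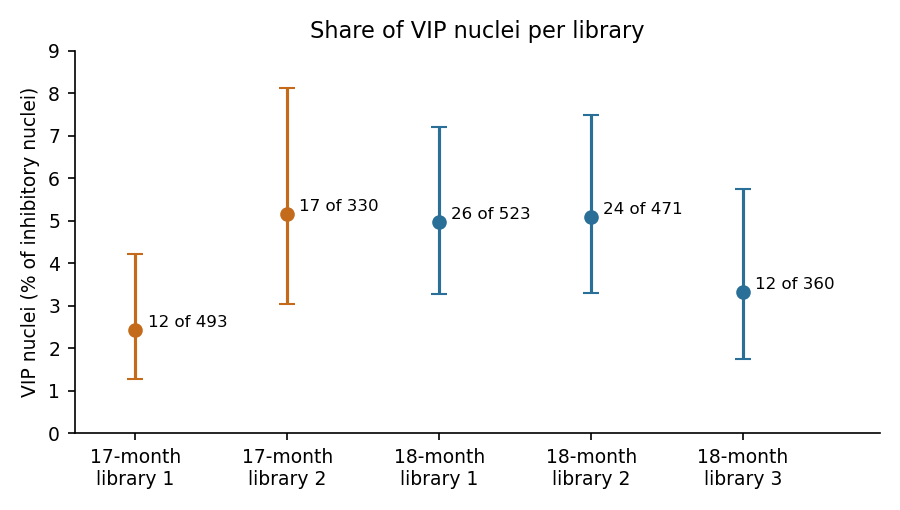
Share of VIP nuclei among inhibitory nuclei (percent, vertical axis) in each of the 5 libraries, with exact 95% binomial intervals and the counts of nuclei. Orange points are the 17-month animal and blue points the 18-month animal, and all points lie between 2.43% and 5.15% with overlapping intervals.

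To find what sets these nuclei apart, UMIs were summed per library over the VIP nuclei and over the other inhibitory nuclei, and compared within libraries. The gate genes were left out. Of 10544 genes tested, 216 were called higher in VIP nuclei (2.05%) and 345 lower (3.27%). A call needed a Benjamini-Hochberg adjusted p under 0.05 in edgeR's quasi-likelihood test and a log2 fold change of at least 1 in size. The filter on low counts asked for a minimum level in as many sums as 1 group holds. A gene scarce in the other nuclei was therefore tested only where VIP nuclei held more of it, and the reverse. TAC3, NPR3, CHRNA2, HS3ST3A1 and HS3ST3B1 passed through the VIP sums alone, so their being tested depended on their high level there. The same filter applied to each reference below. The VIP sums held 89583 to 231945 UMIs per library. Levels are CPM of these sums, in the order 17-month library 1 and 2, then 18-month library 1, 2 and 3. Counts from the 3' end of the RNA compare 1 gene between groups, not different genes with each other.

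**Figure D2:**
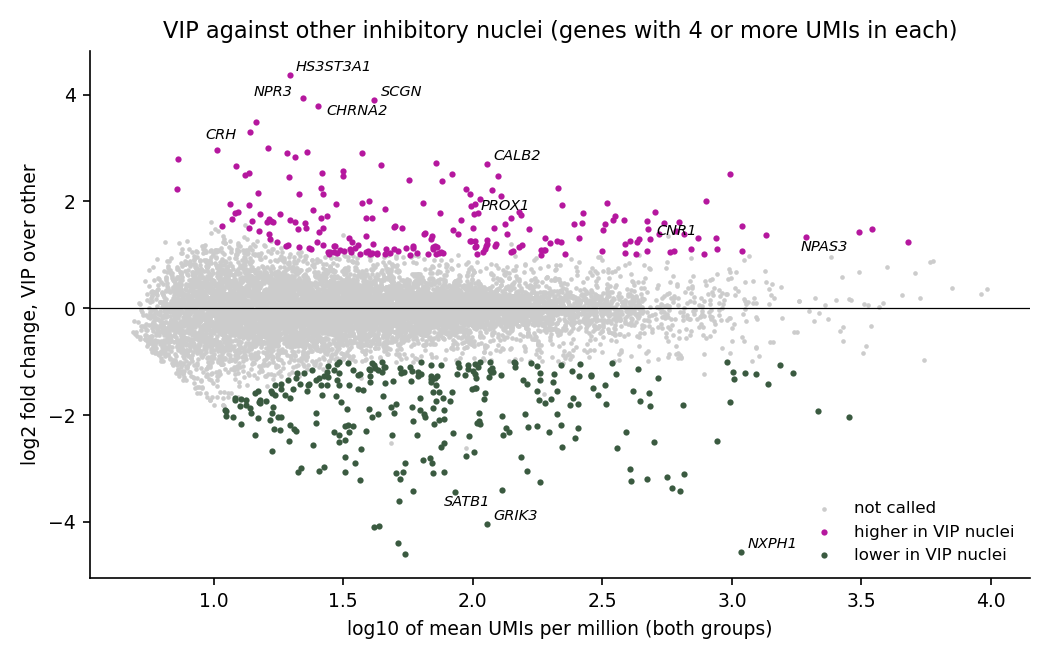
The log2 fold change of VIP over other inhibitory nuclei (vertical axis) against the log10 of the mean level in CPM (horizontal axis) for each tested gene with at least 4 UMIs in both groups. Genes called higher are magenta, genes called lower green and the others grey. HS3ST3A1, at 4.37, is the highest, and NXPH1, an abundant gene at -4.56, is among the lowest.

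Calretinin and secretagogin marked the VIP nuclei, and calbindin did not. CALB2 had levels of 279, 156, 190, 218 and 139 in VIP nuclei and 39.1, 39.8, 26.4, 21.9 and 25.6 in other inhibitory nuclei. All 5 VIP libraries were above all 5 reference values (mean 196 ± 55.3 against 30.5 ± 8.29, SD, n = 5). The log2 fold change was 2.70 (SE 0.19, adjusted p = 4.03e-23). SCGN, which encodes the calcium sensor secretagogin, had levels of 112, 46.3, 64.7, 89.0 and 80.7 against 3.19 to 7.14, again without overlap (log2 3.90, SE 0.33, adjusted p = 5.47e-18). CALB1, the calbindin gene, had 1 UMI in all VIP nuclei and 509 in the other nuclei. Its pooled level was 19.9-fold lower, with a counting interval of 3.55 to 787. Of 15 genes of calcium-binding proteins, 13 were tested, these 2 were called higher and CALB1 lower, beside 2.05% and 3.27% of all tested genes. The median log2 fold change was 0.01, against -0.04 over all genes.

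**Figure D3:**
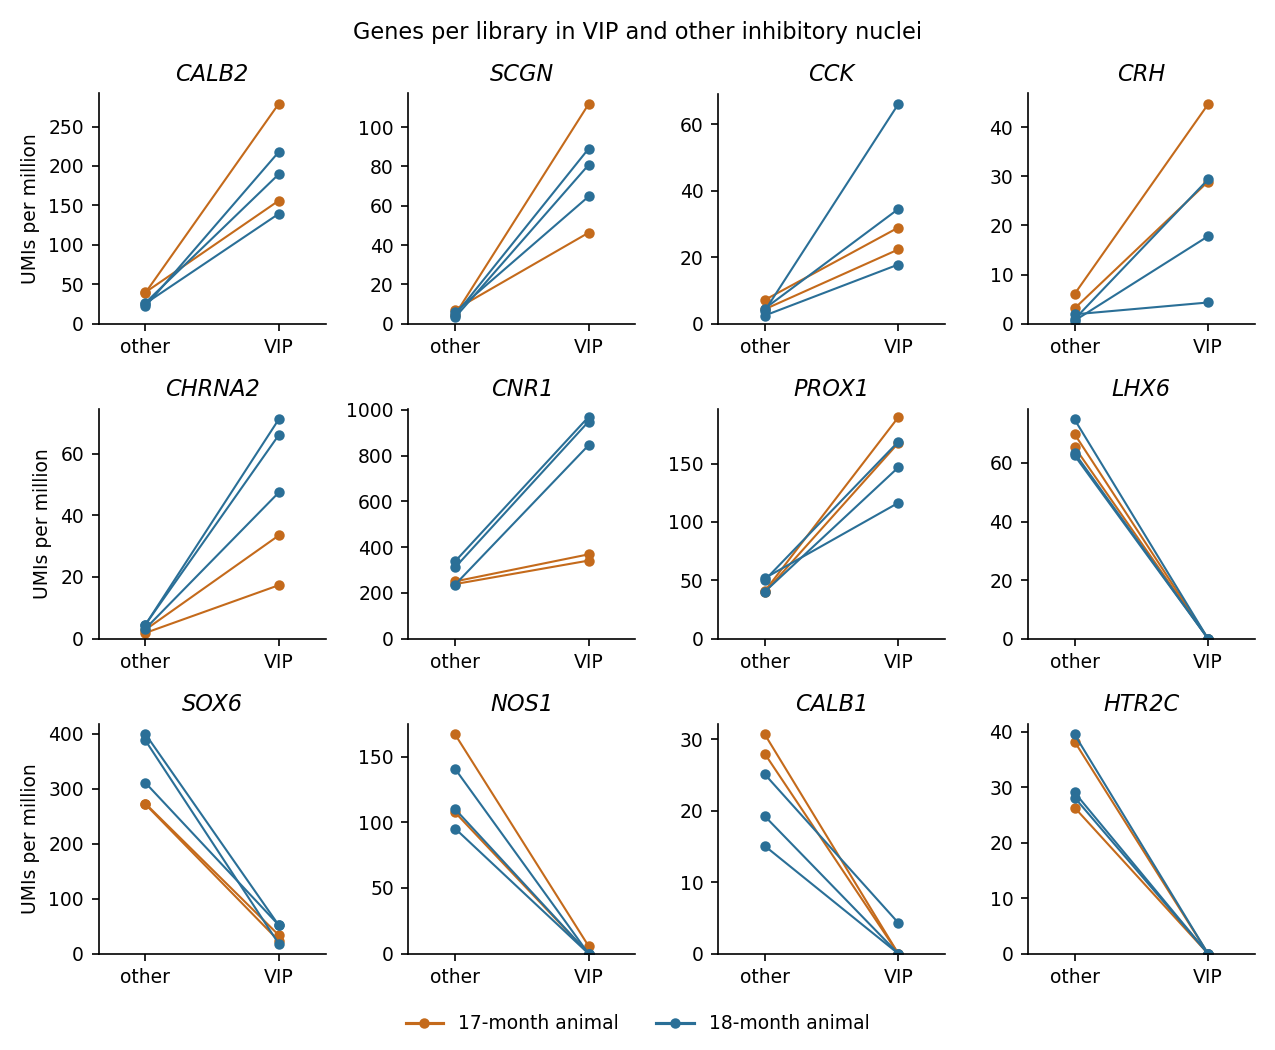
Levels in CPM (vertical axes, from 0) of 12 genes in other inhibitory nuclei and in VIP nuclei, with 1 line per library, orange for the 17-month animal and blue for the 18-month animal. CALB2, SCGN, CCK, CHRNA2 and PROX1 are higher in VIP nuclei in all 5 libraries, LHX6 and HTR2C are at 0 in VIP nuclei, and the CNR1 lines of the 2 animals separate.

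Several other neuropeptide genes were higher in VIP nuclei, each in a minority of them. CCK, for cholecystokinin, had levels of 22.3, 28.9, 34.5, 17.8 and 66.1 against 2.45 to 7.14, with all VIP libraries above the reference (log2 2.90, SE 0.44, adjusted p = 8.05e-08). In the 17-month animal alone it was 2.09 (adjusted p = 0.28). CRH, for corticotropin-releasing hormone, had levels of 44.7, 28.9, 4.31, 17.8 and 29.4 against 6.04, 3.11, 1.90, 0.613 and 0.913. It was higher in each library, though the first library of the 18-month animal, with 1 CRH UMI, fell within the reference range (log2 3.30, SE 0.56, adjusted p = 1.87e-06). TAC3, for neurokinin B, had levels of 11.2, 46.3, 8.62, 17.8 and 29.4 against 3.14 to 4.35 (log2 2.49, SE 0.51, adjusted p = 7.81e-05). These genes rested on few molecules, 28 UMIs of CCK in 18 nuclei, 18 of CRH in 13 nuclei and 19 of TAC3 in 12 nuclei. PTHLH, for parathyroid hormone-like hormone, and SCG2, for a granin of secretory vesicles, were also called higher, at log2 1.62 and 1.06.

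Peptide genes of other inhibitory neurons, and some related genes, were lower. NPY, for neuropeptide Y, was 7.77 ± 3.50 in VIP nuclei and 33.1 ± 9.24 in the others (SD, n = 5; log2 -2.26, SE 0.48, adjusted p = 1.67e-04). CRHBP, which encodes a protein that binds corticotropin-releasing hormone, was 14.0 ± 13.2 against 52.5 ± 8.16 (log2 -2.33, adjusted p = 1.82e-06). TAC1, for substance P, had 3 UMIs in VIP nuclei and was 7.20-fold lower (2.45 to 35). NXPH1, which encodes the neurexin ligand neurexophilin, had levels of 0, 220, 142, 35.6 and 14.7 against 1905 to 2317 (log2 -4.56, SE 0.56, adjusted p = 0.00954). Of the 81 NXPH1 UMIs in VIP nuclei, 37 lay in 1 nucleus of the second 17-month library, and without that library the log2 fold change was -5.22. Of 24 genes on the peptide list, which also holds CRHBP, NXPH1 and NXPH2, 14 were tested, and the median was 0.52. Of these 14, 5 were called higher and 5 lower, beside 2.05% and 3.27% of all tested genes. The filter set part of these counts, since a gene scarce in 1 group passed only where the other held more. The 5 lower ones were TAC1, NPY, CRHBP, NXPH1 and NXPH2. PNOC and PENK, opioid precursor genes, had 8 and 4 UMIs in the VIP nuclei. GRP had none.

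Several receptor genes of peptides and transmitters were higher in VIP nuclei and others lower. CHRNA2, which encodes a nicotinic acetylcholine receptor subunit, had levels of 33.5, 17.3, 47.4, 71.2 and 66.1 against 1.86 to 4.56 without overlap (log2 3.78, SE 0.39, adjusted p = 4.33e-14). It was found in 35.2% of VIP and 2.59% of other inhibitory nuclei, or 12.9% and 1.15% at 3000 UMIs. NPR3, for the natriuretic peptide clearance receptor, had levels of 11.2, 40.5, 30.2, 66.7 and 58.7 against 1.83 to 4.83 (log2 3.93, SE 0.42, adjusted p = 3.79e-13). NTSR1, the neurotensin receptor gene, which is on none of the lists, was 29.0 ± 7.68 against 3.53 ± 1.33 (log2 3.01, adjusted p = 1.15e-07). GRPR, the receptor gene for gastrin-releasing peptide, was 23.4 ± 4.53 against 6.67 ± 2.65 (log2 1.77, adjusted p = 0.0036), and missed the threshold without the second 18-month library (adjusted p = 0.0741). SSTR2, a somatostatin receptor gene, was 37.8 ± 18.7 against 13.2 ± 3.33 with overlapping values (log2 1.42, adjusted p = 0.00343). Lower were RXFP1, the relaxin receptor gene (12.4 ± 18.5 against 105 ± 28.2, log2 -3.41, or -4.17 without the first 17-month library), and TACR1, the substance P receptor gene (46.8 ± 28.0 against 120 ± 24.5, log2 -1.57, and -0.80 with adjusted p = 0.255 in the 17-month animal alone).

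Of 31 genes on the peptide receptor list, 13 were tested, 4 were called higher and 2 lower, with a median of 0.19. For this and the other receptor lists, the shares over all tested genes were 2.05% higher and 3.27% lower. The filter on low counts set part of these counts too. The receptor genes for the peptide VIP itself, VIPR1 and VIPR2, had 2 and 0 UMIs in the VIP nuclei, too few to test. Of 15 acetylcholine receptor genes, 3 passed the filter, of which CHRNA2 was the 1 called. CHRM3, a muscarinic receptor gene, stood at 924 ± 115 against 473 ± 33.0, just under the fold limit (log2 0.94). Among 14 serotonin receptor genes, 6 were tested, none was called higher and 3 were lower. HTR2C had no UMI in VIP nuclei and 695 in the others, at least 9.05-fold lower. HTR7 had 4 UMIs (3.74 ± 5.72 against 38.7 ± 2.60, log2 -3.06, or -4.57 without the first 18-month library). HTR2A had 5 (log2 -1.88, adjusted p = 0.0163), and its call ended with DESeq2 (adjusted p = 0.109), without the second 17-month library (0.105) and without the third 18-month library (0.0638). HTR3A, which encodes the serotonin-gated channel used as a marker of caudal interneurons, had 10 UMIs in 6 VIP nuclei, at 9.80 ± 13.5 against 2.57 ± 0.701, and was too low to test. ADRA1B, an adrenergic receptor gene, was 162 ± 37.1 against 47.7 ± 5.41 (log2 1.78, adjusted p = 7.64e-15).

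CNR1, which encodes the cannabinoid receptor of presynaptic terminals, was the 1 called gene of 7 tested on the endocannabinoid list, where 2.05% of all tested genes were called higher. Its levels were 368, 341, 949, 845 and 969 in VIP nuclei and 250, 239, 311, 236 and 338 in the others (log2 1.30, SE 0.18, adjusted p = 1.09e-04). All VIP values were above the reference, the 3 libraries of the 18-month animal far more so. In the 17-month animal alone the log2 fold change was 0.50 (adjusted p = 0.291).

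Some transcription factor genes of the caudal eminence were higher in VIP nuclei and others lower. The gate asks for ADARB2, a gene of caudal neurons, so part of the higher values was set by the choice of nuclei. PROX1, a caudal eminence factor, had levels of 190, 168, 116, 147 and 169 against 39.8 to 51.9 (log2 1.77, SE 0.18, adjusted p = 6.81e-14). PROX1 was seen in 63.7% of VIP nuclei but also in 24.6% of oligodendrocyte nuclei, so detection alone does not set VIP nuclei apart. NPAS3 was 4518 ± 914 against 1648 ± 90.6 (log2 1.42), DLX1 62.7 ± 17.0 against 18.7 ± 2.26 (log2 1.68) and NR2E1 36.0 ± 10.3 against 5.13 ± 1.25 (log2 2.83). Of 22 factors on the caudal list, 20 were tested, these 4 were called higher, and 4 were called lower, among them TOX2, MEIS2 and ETV1. The shares over all tested genes were 2.05% and 3.27%. The median of the list was 0.40. NR2F2, a caudal factor, had a log2 fold change of 0.93 with overlapping values (38.4 ± 17.0 against 22.7 ± 4.77, adjusted p = 0.043) and stayed under the fold limit. SP8 had 4 UMIs in VIP nuclei.

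Factors of the medial eminence were lower, in part by the choice of nuclei, since the gate asks for ADARB2 and no SST. LHX6 had no UMI in VIP nuclei and 1474 in the others, at least 19.2-fold lower. SOX6 had levels of 33.5, 23.1, 51.7, 17.8 and 51.4 against 271 to 399 (log2 -3.25, SE 0.21, adjusted p = 2.36e-25). SATB1 had levels of 11.2, 11.6, 47.4, 13.3 and 22 against 205 to 277 (log2 -3.39, SE 0.24, adjusted p = 5.85e-23), and its log2 fold change was -4.05 without the first 18-month library. TOX was 35.5 ± 41.7 against 287 ± 12.4 (log2 -3.05, adjusted p = 1.06e-05). It had 110 in the second 17-month library and 13.3 to 22.3 elsewhere, and 16 of its 30 UMIs lay in 1 nucleus of that library, without which it was -4.16. Of 9 genes on this list, 6 were tested, 4 were lower and none higher, beside 3.27% and 2.05% of all tested genes. The median was -3.15, which is the same with LHX6 at its bound. MAF was not called (68.0 ± 17.4 against 49.6 ± 3.81, log2 0.41, adjusted p = 0.353).

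Other genes with high fold changes included enzymes and a channel. HS3ST3A1 and HS3ST3B1, which encode sulfotransferases of heparan sulfate, were 37.5 ± 17.0 against 1.87 ± 0.686 (log2 4.37, SE 0.46, adjusted p = 8.83e-14) and 26.9 ± 10.9 against 2.15 ± 0.721 (log2 3.49, SE 0.51, adjusted p = 3.07e-08). Their 34 and 22 UMIs lay in 20 and 11 of the 91 nuclei. ASIC4, of the acid-sensing channel family, was 40.3 ± 15.2 against 5.51 ± 1.15 (log2 2.93), and MOXD1, a monooxygenase gene, 65.1 ± 26.7 against 9.50 ± 4.41 (log2 2.91).

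NOS1, for neuronal nitric oxide synthase, had 1 UMI in VIP nuclei and 2637 in the others, 103-fold lower with a counting interval of 18.5 to 4071. PIEZO2, a mechanosensitive channel gene, had 2 UMIs and was 75.4-fold lower (20.9 to 623). ANXA2, MROH7, TXLNB and SFTA3 had no UMI in VIP nuclei and were at least 6.69-, 6.73-, 6.71- and 6.65-fold lower.

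Glutamate receptor genes were shifted rather than uniformly lower. GRM7, for a presynaptic metabotropic receptor, was 1634 ± 286 against 556 ± 72.5 (log2 1.53, adjusted p = 7.79e-24). The kainate subunit gene GRIK3 had levels of 33.5, 5.78, 8.62, 22.2 and 0 against 189 to 237 (log2 -4.04, SE 0.28, adjusted p = 2.53e-23). The NMDA subunit gene GRIN3A was 61.0 ± 36.2 against 381 ± 40.3 (log2 -2.60) and the AMPA subunit gene GRIA3 207 ± 50.7 against 621 ± 38.3 (log2 -1.56). Of 24 glutamate receptor genes, 23 were tested, 2 were called higher and 7 lower, with a median of -0.68. Over all tested genes, 2.05% were called higher and 3.27% lower. Of 13 tested GABA receptor genes, GABRD was the 1 called, lower at 7.72 ± 9.75 against 40.7 ± 5.65 (log2 -2.56, or -3.89 without the second 17-month library, and -0.91 with adjusted p = 0.683 in the 17-month animal alone), and the median was -0.06.

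A few channel genes were called, more of them lower than higher, where 2.05% of all tested genes were called higher and 3.27% lower. Among 33 tested genes of potassium and related channels, KCNB2 (710.5 ± 139.9 against 228 ± 18.7, log2 1.63) and KCNT2 (828 ± 107 against 271 ± 27.6, log2 1.61) were higher. KCNAB1, KCNC1 and KCNC2 were lower, of which KCNC2, for a Kv3 channel of fast-spiking neurons, was 995 ± 133 against 2061 ± 157 (log2 -1.06). Of 21 tested sodium and calcium channel genes, none was higher and CACNA2D2 and CACNG3 were lower, CACNA2D2 with adjusted p = 0.0618 when the first 18-month library was left out. SYNPR, which encodes the synaptic vesicle protein synaptoporin, had UMIs in all 91 VIP nuclei and stood at 1480 ± 108 against 701 ± 55.9 (log2 1.07, adjusted p = 2.56e-15). Its log2 fold change was 0.98 with no filter on low counts, under the fold limit. SLC6A11, for a GABA transporter, was 78.1, 150, 108, 138 and 323 against 61.3 to 74.3 (log2 1.20), and was 0.87 without the third 18-month library.

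Adhesion and guidance genes moved in both directions. Of 47 tested, 8 were higher and 13 lower, beside 2.05% and 3.27% of all tested genes, with a median of -0.32. The higher ones included PCDH8, a protocadherin gene (44.8 ± 22.1 against 7.48 ± 2.20, log2 2.53), SEMA3E, a semaphorin gene (158 ± 82.6 against 38.1 ± 10.7, log2 2.15), EPHB1, an ephrin receptor gene (235 ± 90.7 against 70.4 ± 16.6, log2 1.74) and CDH10, a cadherin gene (529 ± 70.1 against 169 ± 13.2, log2 1.65). The lower ones included UNC5D, a netrin receptor gene (260 ± 131 against 1491 ± 80.1, log2 -2.49), SLIT2, a repellent ligand gene (89.5 ± 24.3 against 421 ± 62.1, log2 -2.25), and EPHA6 (83.4 ± 61.3 against 727 ± 186, log2 -3.02). Of the 78 EPHA6 UMIs, 34 lay in 1 nucleus of the first 18-month library, and without that library EPHA6 was at -3.70. Among 20 tested synapse organisers, 3 were higher and 7 lower, to be read against the same shares. PTPRM and PTPRT, adhesive phosphatase genes, were at -3.36 and -3.43, and CNTN6, a contactin gene, at 1.78.

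The other inhibitory nuclei mix several types, so VIP nuclei were also set against 808 inhibitory nuclei with ADARB2 but with neither VIP nor SST UMIs. This reference was itself mixed, with RELN, the gene of the matrix protein reelin, in 44.9%, NOS1 in 38.2% and LHX6 in 15.8% of nuclei. Since VIP was captured sparsely, VIP neurons with no captured VIP UMI may also lie in this reference. How many was not tested. Its nuclei are part of the wider reference and it is compared with the same VIP sums, so the values are given side by side. Of 8188 genes, 171 were called higher in VIP nuclei (2.09%) and 266 lower (3.25%). SCGN (7.19 ± 2.99 in the reference, log2 3.38, adjusted p = 3.04e-09), CALB2 (50.7 ± 16.2, log2 1.99, adjusted p = 2.07e-09), CHRNA2 (5.82 ± 3.23, log2 3.03), CCK (7.47 ± 3.61, log2 2.17) and HS3ST3B1 (2.79 ± 1.87, log2 3.10) were higher here too. CRH, NPR3 and TAC3 were under the filter on low counts. In the 17-month animal alone, 24 of the named genes of this comparison kept their direction but were not called, and 39 were still called. Those not called included CCK (log2 1.27, adjusted p = 0.464), NR2E1 (log2 1.78, adjusted p = 0.121), KCNK2 (log2 1.59, adjusted p = 0.0579), GABRD (log2 -1.01, adjusted p = 0.565), GABRA5 (log2 -1.06, adjusted p = 0.522) and GABRA3 (log2 -0.55, adjusted p = 0.616). In the 18-month animal alone, 4 were not called and 59 were.

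RGS6, which encodes a regulator of G protein signalling, was among the most different of the abundant genes, at 1678 ± 204 in VIP nuclei against 227 ± 45.8 (log2 2.89, SE 0.13, adjusted p = 3.57e-16). PRTG, an adhesion protein gene, was 95.1 ± 9.50 against 15 ± 3.24 (log2 2.68), SMOC1, a matrix protein gene, 141 ± 58.9 against 22 ± 3.22 (log2 2.62), and FGFR2, a growth factor receptor gene, 162 ± 59.8 against 29.9 ± 13.6 (log2 2.48). The ion channel genes KCNMB2 (98.6 ± 29.4 against 18.4 ± 1.45, log2 2.40) and KCNK2 (113 ± 55.3 against 28.5 ± 9.22, log2 1.93) were higher. Both tested genes of acetylcholine receptors that were called, CHRNA2 and CHRM3, were higher, CHRM3 at 924 ± 115 against 435 ± 28.6 (log2 1.07, adjusted p = 4.21e-09). The log2 fold change of CHRM3 was 0.97 with no filter on low counts.

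CNR1 and PROX1 were not called against this reference, which may hold VIP neurons with no captured VIP UMI. CNR1 stood at 694 ± 314 against 573 ± 107 with overlap (log2 0.24, adjusted p = 0.463). PROX1 had a log2 fold change of 0.85 (adjusted p = 5.41e-04), under the fold limit, and NR2F2 of -0.03 (adjusted p = 0.979). NPAS3 (log2 1.18), NR2E1 (log2 1.81) and DLX1 (log2 1.62) were higher. Of 17 tested caudal factors, 3 were higher and 4 lower, beside 2.09% and 3.25% of all tested genes. The median of the list was -0.03, against 0.00 over all genes.

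Genes lower than in this reference included markers of the LAMP5 and reelin types. RELN was 74.9 ± 40.5 against 792 ± 201 (log2 -3.16, adjusted p = 2.81e-07) and LAMP5 4.34 ± 7.47 against 98.9 ± 26.0 (log2 -4.14, adjusted p = 2.31e-09). CXCL14, a chemokine gene of caudal interneurons, was 18.6 ± 6.90 against 89.4 ± 23.6 (log2 -2.17). FOXP2, a transcription factor gene, had 6 UMIs in VIP nuclei, at 7.84 ± 7.26 against 210 ± 177 (log2 -4.74), and its adjusted p was 0.105 in a fit without the library as a block. HTR2C, NMBR, LHX6 and TXLNB had no UMI in VIP nuclei and were at least 15.7-, 8.12-, 6.92- and 12.3-fold lower. NOS1 was 79.7-fold (14.3 to 3151) and CALB1 23.9-fold (4.25 to 950) lower. The GABA-A subunit genes GABRD (log2 -2.68, or -4.01 without the second 17-month library), GABRA5 (log2 -1.32) and GABRA3 (log2 -1.15) were lower. GABRA5 missed the threshold with DESeq2 (adjusted p = 0.0952) and without the first 18-month library (0.107), and GABRA3 was at -0.93 without the third.

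**Figure D4:**
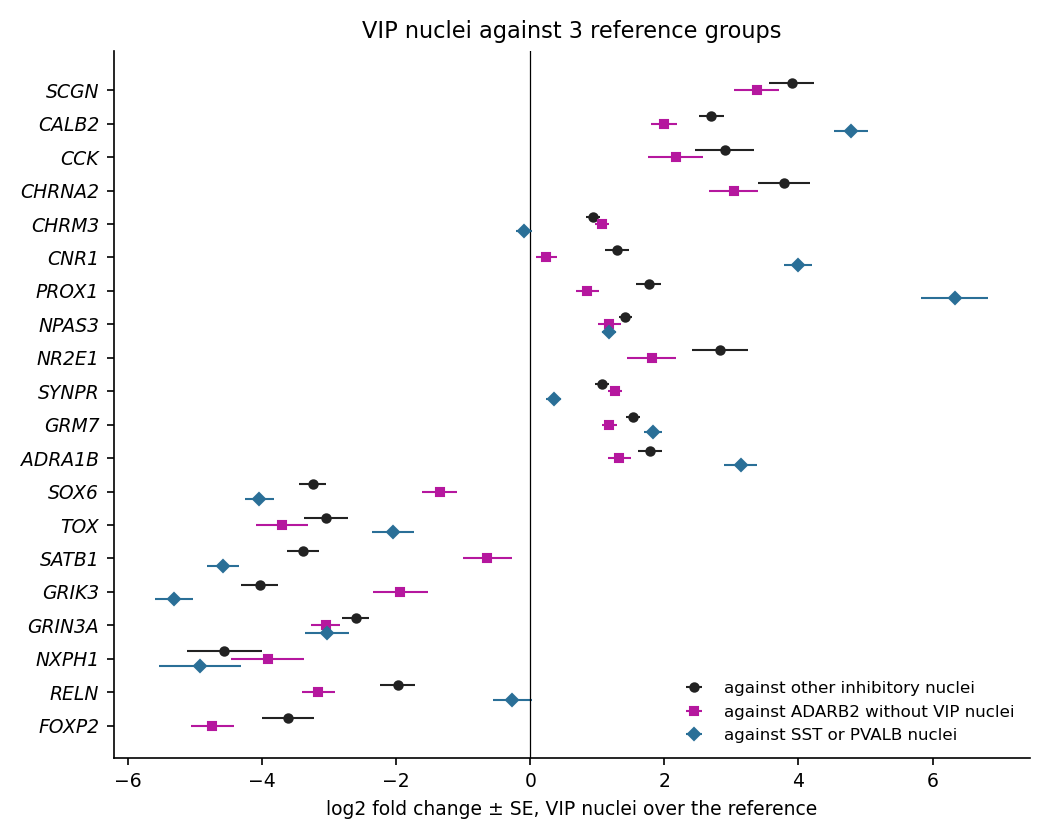
Log2 fold change with its standard error (horizontal axis) of 20 genes in VIP nuclei over other inhibitory nuclei (black), ADARB2 nuclei without VIP (magenta) and SST or PVALB nuclei (blue), for genes tested with at least 4 UMIs in both groups. CNR1 and PROX1 lie near 0 to 1 against the ADARB2 nuclei and at 3.99 and 6.33 against the SST or PVALB nuclei, while SCGN, CALB2 and NPAS3 are above 1 wherever plotted.

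The third reference was 248 nuclei with fewer than 5 ADARB2 UMIs, no VIP and at least 2 UMIs of SST or PVALB. SST was found in 98.4% of them and PVALB in 2.02%, so it is in effect an SST group. SST and ADARB2 entered both gates, so differences in caudal and medial eminence genes were in part set by the choice of nuclei. Of 5822 genes, 306 were called higher in VIP nuclei (5.26%) and 304 lower (5.22%). SCGN had 64 UMIs in VIP nuclei and none here, at least 79.0-fold higher. PROX1 was 158 ± 27.7 against 2.18 ± 4.87 (log2 6.33, SE 0.50, adjusted p = 3.46e-08), with all 5 reference UMIs in 1 library, the second of the 17-month animal, and none in the other 4. CALB2 was 196 ± 55.3 against 7.0 ± 3.84 (log2 4.78) and CNR1 694 ± 314 against 44.4 ± 20.3 (log2 3.99). KCNT2 (log2 4.50), COBL, an actin nucleator gene (log2 4.53), ROR2, a Wnt receptor gene (log2 4.67), PLPP4 (log2 4.89) and FBN3, a fibrillin gene (log2 4.81), were among the highest.

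Of 12 tested caudal factors, 6 were higher, with a median of 1.04 against 0.01 over all genes. They included NFIX (83.0 ± 17.4 against 6.45 ± 7.50, log2 3.85, or 4.64 without the second 17-month library) and NFIB (406 ± 127 against 45.6 ± 11.4, log2 3.17), which had not been called against the other inhibitory nuclei (log2 0.35 and 0.39). ERBB4, the neuregulin receptor gene, was 10954 ± 1325 against 3395 ± 684 (log2 1.71). Genes of potassium and related channels had 7 of 28 higher and 4 lower, among the higher KCNIP2 (124 ± 19.5 against 23.9 ± 6.77, log2 2.36). For both lists, the shares over all tested genes were 5.26% higher and 5.22% lower.

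Lower than in the SST or PVALB nuclei were all 4 called factors of the medial eminence, a direction in part set by the gates. LHX6 was at least 29.4-fold lower, SATB1 was 21.1 ± 15.4 against 549 ± 55.9 (log2 -4.58, or -5.20 without the first 18-month library), SOX6 35.5 ± 15.7 against 582 ± 155 (log2 -4.04) and TOX 35.5 ± 41.7 against 155 ± 132 with overlap (log2 -2.05, adjusted p 0.246 without the library as a block, and -2.68 without the second 17-month library). ANXA2 and TEC, a kinase gene, had no UMI in VIP nuclei and were at least 29.6- and 21.3-fold lower. NPY was 7.77 ± 3.50 against 109 ± 56.6 (log2 -3.93) and GRIK3 14.0 ± 13.6 against 522 ± 56.2 (log2 -5.31). RELN was not called (74.9 ± 40.5 against 104 ± 31.9, log2 -0.27, adjusted p = 0.618), nor was CHRM3 (log2 -0.09, adjusted p = 0.699).

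The VIP nuclei varied among themselves in which of these genes they carried. CALB2 and SCGN were found together in 19 nuclei, CALB2 alone in 51, SCGN alone in 10 and neither in 11. CALB2 was present in 10 of 12, 14 of 17, 18 of 26, 20 of 24 and 8 of 12 nuclei of the 5 libraries, so no library lacked either kind. At least 1 of CCK, CRH and TAC3 was found in 36 nuclei, 2 or more in 7 and none in 55. SCGN, found in 29 nuclei, shared 8 of the 13 with CRH, 11 of the 26 with NPR3 and 1 of the 12 with TAC3. These pairs were picked from many, and their overlap was not tested. Counts this low leave a gene undetected in many nuclei that may express it, so the absence of a UMI does not define a subtype.

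**Figure D5:**
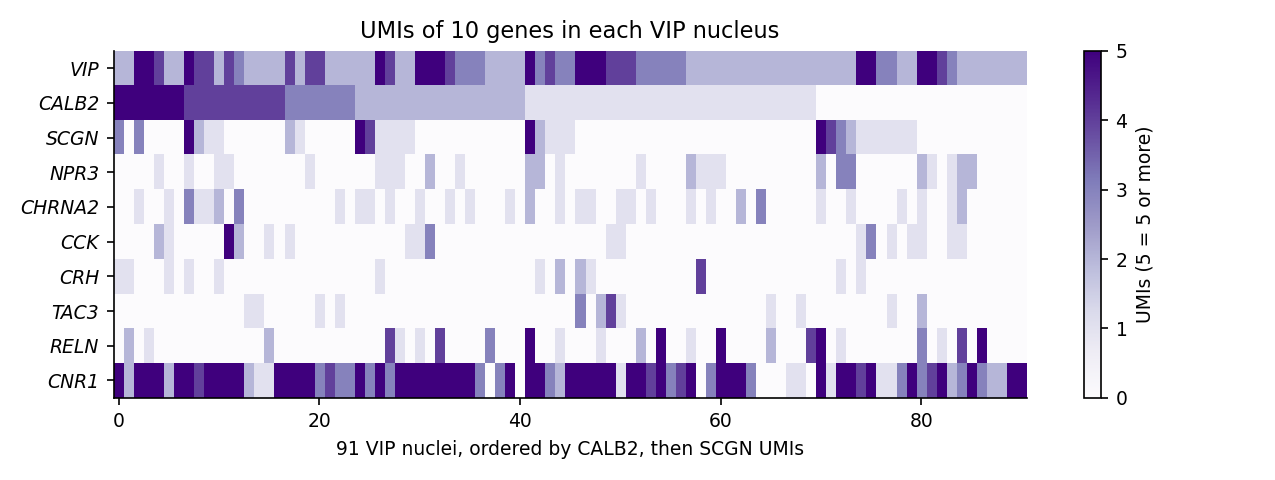
UMIs of 10 genes (rows) in each of the 91 VIP nuclei (columns, ordered by CALB2 and then SCGN), on a colour scale from 0 to 5 or more. CALB2 is present in 70 nuclei and CNR1 in 84, and SCGN, NPR3, CHRNA2, CCK, CRH, TAC3 and RELN appear in scattered minorities on both sides of the CALB2 limit.

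Nuclei with and without CALB2 were compared by pooled values, with no test, because no library had 10 nuclei in both sets. For the same reason no test was made for CCK, which had 2 or more UMIs in 5 nuclei. The 41 nuclei with at least 2 CALB2 UMIs had 28.0 CPM of NPR3 (exact Poisson 95% interval 14.0 to 50.1), and the 21 nuclei without CALB2 had 90.2 (51.6 to 146). HS3ST3A1 was 22.9 (10.5 to 43.5) with and 95.8 (55.8 to 153) without CALB2, HS3ST3B1 7.64 (1.57 to 22.3) and 50.7 (23.2 to 96.3), and RELN 45.8 (27.2 to 72.4) and 124 (77.7 to 188). These 4 genes were singled out after their values were seen. The intervals treat UMIs as independent and leave out the spread between nuclei and between libraries. Of the 22 RELN UMIs in the nuclei without CALB2, 7 lay in a single nucleus and 6 in another. CNR1, at 815 (728 to 909) and 857 (726 to 1004), and SCGN, at 84.0 (57.8 to 118) and 118 (73.3 to 181), had overlapping intervals.

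Between the animals few genes of the VIP nuclei were called, and those that were depended on the fit. With no fold limit, 9 of 4145 genes were called higher in the 18-month animal (0.217%) and 12 lower (0.29%), while 373 had an unadjusted p under 0.05. With DESeq2 the counts were 1 and 0, and with the replicate number as a block 0 and 0. CNR1 was the 1 gene called by both tools. Its 368 and 341 CPM in the 17-month libraries lay below the 949, 845 and 969 of the 18-month libraries (log2 1.40, SE 0.22, adjusted p = 1.15e-04). SEMA3E had 67.0 and 86.7 against 233, 249 and 154 (log2 1.46, adjusted p = 0.0232), and missed the threshold when either 17-month library, or the first or second 18-month library, was left out (adjusted p 0.0855 to 0.162). FREM2, a basement membrane protein gene, had no UMI in either library of the younger animal, against 56.0, 89.0 and 73.4 in the older, yet its 43 UMIs lay in 9 nuclei, 18 of them in 1, and it missed the threshold without the second 17-month (adjusted p = 0.153) or the first 18-month library (0.0611). ADAMTS6 (log2 1.94, or 3.18 without the second 17-month library) and ADAMTS17 (log2 3.05, from 44.7 and 0 against 134, 156 and 95.4), metalloproteinase genes, were called higher, and ADAMTS17 missed the threshold without the second 17-month library (log2 1.59, adjusted p = 0.479) or the second 18-month library (0.0721).

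MBP, the myelin basic protein gene, was lower in VIP nuclei of the 18-month animal, at 73.3, 129 and 117 against 279 and 353 (log2 -1.60, adjusted p = 7.11e-04). Of its 148 UMIs, 44 lay in 1 nucleus of the second 17-month library. With the nuclei of highest doublet scores removed, the log2 difference was -0.34 (adjusted p = 0.893), and without the second 17-month library it was -1.36 (adjusted p = 0.153). The oligodendrocyte marker sums of VIP nuclei were 520 and 761 in the 17-month and 367, 409 and 269 in the 18-month libraries. ST18 was also lower in the 18-month animal (112 and 116 against 38.8, 8.90 and 29.4, log2 -2.12, adjusted p = 0.0407), and missed the threshold without the second 17-month library or without the first or second 18-month library (adjusted p 0.0611 to 0.496). The part of oligodendrocyte RNA in these differences was not tested. CALB2 (log2 -0.11, adjusted p = 0.964), SCGN (log2 0.16, adjusted p = 0.961) and SYNPR (log2 -0.03, adjusted p = 0.997) were not called.

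Whether the contrast of VIP with other inhibitory nuclei itself differed between the animals was tested as an interaction. Of 10544 genes, 9 had a higher (0.0854%) and 13 a lower (0.123%) contrast in the 18-month animal, and 647 had an unadjusted p under 0.05. CNR1 had log2 ratios of 0.55 and 0.51 in the younger animal and 1.59, 1.82 and 1.51 in the older (difference 1.16, SE 0.24, adjusted p = 0.00253). MBP differed by -1.46 (SE 0.30, adjusted p = 0.00167), with the limit given for it above. CALB2 did not pass the test (difference 0.58, SE 0.35, adjusted p = 0.907).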

How the data were processed

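The deposited values are raw UMI counts per gene and barcode in 5 matrices. Per the file headers they come from Cell Ranger 5.0.1. Builds Mmul_10 and mm10 appear in the submitters' processing notes, with the tools Seurat, Cell Ranger and CASAVA 1.8. How the authors chose the barcodes they deposited is not given in the sources used here. Of 21761 genes, 16522 had symbols in the files, 645 took one from the reference table and 4594 kept their identifier.

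The gates were applied to raw counts in Python 3.11.15, and the members and the 17 gene lists (346 genes) were chosen with earlier results of these data known. UMIs were summed per library and group, without the 9 gate genes, and levels are CPM of such a sum. Marker sums use all UMIs. Groups were compared with edgeR 4.0.16 in R 4.3.3, by the quasi-likelihood test on TMM-scaled counts with the library as a block, after filterByExpr. A call needed an adjusted p under 0.05 and, except between animals, a log2 fold change of at least 1 in size. The standard error is the fold change divided by the square root of F. The genes named were the 10 highest and 10 lowest called genes that had the same direction in each library and at least 20 CPM in the higher group, up to 4 per list, and 6 in each direction between animals. List members are also given where a list is described. Some genes that the rule names are not reported here.

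For a gene with no UMI in a group, the bound uses 3 counts over the group. Shares at 3000 UMIs are hypergeometric expectations. Doublets were not removed in the main analysis, and in an alternative the highest Scrublet scores (scanpy 1.11.5) were removed, at 0.8% per 1000 barcodes. Other alternatives were DESeq2 1.42.0, other size factors, no filter, no block, other depth and VIP limits, thinning, each animal alone and leaving out each library. The scripts were tested on simulated data.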

Additional observations from a re-analysis of the deposited data

Results flagged for a closer look

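In 5 of 58 named genes, 1 of the 5 VIP libraries lay far from the other 4 in CPM, and chance flags about 1 in 20 groups. TOX reached 110 in the second 17-month library, where 16 of its 30 UMIs came from 1 nucleus. RXFP1 reached 44.7 in the first 17-month library, from 4 UMIs in 3 nuclei. NOS1 at 5.78 and CALB1 at 4.31 rested on 1 UMI each, and DRD2 at 8.90 on 2.

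In a test of the difference itself, the contrast of VIP with other inhibitory nuclei differed between the animals for CNR1, by 1.16 on the log2 scale (adjusted p = 0.00253 in edgeR's quasi-likelihood test), and its log2 ratio was higher in each of the 3 libraries of the 18-month animal than in both of the 17-month animal. TOX differed by -2.28 (adjusted p = 0.0271). Its log2 ratios were -3.39 and -1.40 in the 17-month and -3.78, -3.94 and -3.84 in the 18-month libraries, so that the difference rests on the second 17-month library. No alternative was run for these differences.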

How the results depend on the processing

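No fold change of a named gene changed sign under an alternative that gave it a value, but some settings, thinning above all, left named genes untested, and no alternative was run for the difference between animals in the contrast. The animal with the higher share of VIP nuclei changed with thinning and with the VIP limit. In the 17-month animal alone, 14 named genes lost their call against other inhibitory nuclei, 24 against ADARB2 nuclei and 4 against SST or PVALB nuclei. In the 18-month animal alone 5, 4 and 4 did. With at least 4 VIP UMIs per nucleus (29 nuclei), 97 genes were higher against other inhibitory nuclei and 94 against ADARB2 nuclei, and with each nucleus thinned to 3000 UMIs 125 and 101. Against SST or PVALB nuclei, thinning gave 152 higher and 165 lower, and no filter on low counts 528 lower. Between animals, the replicate block gave 0 higher and 0 lower, DESeq2 1 and 0, removal of the highest Scrublet scores 5 and 4, and leaving out 1 library 3 to 19 and 6 to 27. Libraries of the animals share only a number, 2 numbers in all, so the replicate block does not pair them. Shares of VIP nuclei in the 17-month and 18-month animals were 1.36% and 0.605% when thinned before the gates, 8.40% and 7.97% with 1 VIP UMI enough, and 0.960% and 1.66% with at least 4. An alternative chosen after seeing the data, without reference nuclei that held a VIP UMI, gave 234 higher and 357 lower, of which 214 and 341 were shared with the main calls. The planned tests of VIP nuclei with against without CALB2, and with against without CCK, were not run, since no library held 10 nuclei in both sums. The few VIP UMIs and the 12 to 26 VIP nuclei per library limit the precision.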
